A study of Homo sapiens with 18 samples.

Results

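The transforming growth factor-β (TGF-β) and bone morphogenetic protein (BMP) pathway was followed in SW620 cells, a human colon cancer line, through 10 of its genes. They were the receptors TGFBR1, TGFBR2 and TGFBR3, the signal transducer SMAD3, the inhibitory SMAD6 and SMAD7, the DNA-binding inhibitors ID1, ID2 and ID3, and the pseudoreceptor BAMBI. The genes were taken by name, and TGFBR3 was chosen by its measured response to siLonp1, which differed with heat. Its values are therefore given as a description, with no test. All 10 genes were among the 26485 gene symbols of the count data and among the 12832 that passed the filter on low counts, and tests cover the other 9.

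The cells received either an siRNA that silences Lonp1 (siLonp1), a protease of the mitochondrial matrix, or a scramble siRNA as control. In each arm, 1 group stayed at 37 °C throughout (Ctrl), 1 was heated to 42 °C during 1 h (HS), and 1 was heated likewise and allowed to recover at 37 °C for a further 1 h (HS+REC). RNA was sequenced from 3 biological replicates in each of the 6 groups. The study asked whether silencing Lonp1 modifies the transcriptional response to heat. The cells are 1 line, and the siRNA sequence used for RNAseq is not given in the sources used here. The loss of Lonp1 and any other action of its siRNA cannot be told apart, and no TGF-β or BMP ligand was added in the treatments described.

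TGF-β binds the type II receptor TGFBR2, which recruits and activates the type I receptor TGFBR1, and TGFBR3 (betaglycan) is a co-receptor that presents ligand. The active receptors phosphorylate SMAD2 and SMAD3 in the TGF-β and activin branch, and SMAD1, SMAD5 and SMAD9 in the BMP branch, and these enter the nucleus with SMAD4 to regulate genes. SMAD6, SMAD7 and BAMBI restrain the receptors and are themselves induced by the pathway, and ID1, ID2 and ID3 are classical BMP targets. In the colon epithelium the TGF-β branch restrains growth, and many colon tumours lose part of it.

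Total counts per library ranged from 30815860 to 47279297, with a median of 40847024.5. Levels are given as CPM, which are counts relative to the library size scaled by TMM factors, which ranged from 0.934 to 1.06. LONP1, the targeted gene, was at 221 ± 5.56 CPM (SD, n = 3) in Ctrl scramble and at 20.4 ± 1.75 CPM in Ctrl siLonp1. With siLonp1 it was at 11.7 ± 0.154 CPM in HS and 27.2 ± 1.64 CPM in HS+REC. The siLonp1 groups did not overlap, so the remaining LONP1 RNA differed with heat, while scramble was at 214 ± 15.7 CPM in HS and 218 ± 18.7 CPM in HS+REC. The highest of the 9 siLonp1 libraries held 28.9 CPM against 197 CPM in the lowest of the 9 scramble libraries. Of 10 markers of colon epithelium, 8 passed the filter and their sum was 8330 to 11700 CPM, whereas CDX1 was at 0 and LGALS4 at most at 0.435 CPM. The 7 fibroblast markers summed to 43.7 to 49.8 CPM in Ctrl scramble and to 23.5 to 25.2 CPM in Ctrl siLonp1, to 43.8 to 47.4 and 25.3 to 29.7 CPM in HS, and to 61.2 to 62.5 and 45.1 to 46.3 CPM in HS+REC, from COL1A1, LUM and PDGFRB, while the defining markers COL1A2, COL3A1, DCN and PDGFRA reached at most 0.163 CPM. The 4 endothelial markers summed to 0.653 to 1.52 CPM, and the 5 leukocyte markers to 16 to 21.8 CPM, from CD68 and LYZ, with PTPRC at most at 0.0735 CPM. SW620 is a single line, so the fibroblast, endothelial and leukocyte lists describe RNA of the line and not other cell types. In a bulk sample, fewer cells with a transcript and less of it per cell cannot be told apart.

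At 37 °C with scramble siRNA, the BMP-responsive genes BAMBI and ID2 had the most RNA per length. Their levels were 91.6 and 77.8 CPM per kb of the canonical transcript, followed by TGFBR2 at 42.9, ID1 at 29.4, SMAD3 at 10.8 and TGFBR3 at 4.98 CPM per kb. TGFBR1 at 3.74 and SMAD7 at 3.67 CPM per kb overlapped over their 3 libraries and could not be ordered. SMAD6 at 2.83 and ID3 at 1.13 CPM per kb were lowest, and all other neighbours in this order had no overlap. The transcript used in the counting may have another length, which would shift the order between genes but not a comparison between groups.

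HS raised more of these genes than it lowered. siLonp1 raised TGFBR1, TGFBR2, ID2 and BAMBI in all 3 conditions and SMAD3 at Ctrl and in HS, and it lowered SMAD7 in all 3. A gene was called when its Benjamini-Hochberg adjusted p from edgeR's quasi-likelihood test, taken over the 12832 genes, was at most 0.05. HS against Ctrl raised 5 and lowered 1 of the 9 genes in the scramble arm, where 18.6% of all genes tested were called higher and 17.3% lower. In the siLonp1 arm HS raised 5 and lowered 3, with 20.2% of all genes called higher and 22.1% lower. With library size alone as the scaling, the scramble arm had 5 higher and 2 lower calls.

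HS+REC against Ctrl raised 4 and lowered 3 of the 9 genes in the scramble arm, beside 21.8% higher and 20.5% lower among all genes. It raised 3 and lowered 3 in the siLonp1 arm, beside 24.6% and 26.6% of all genes, and 2 and 4 when library size alone was the scaling. From HS to HS+REC, 2 rose and 5 fell in the scramble arm, where all genes gave 14.2% higher and 12.7% lower. In the siLonp1 arm 1 rose and 5 fell, beside 16.3% and 15.6%. The HS and HS+REC comparisons of an arm share its Ctrl libraries.

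siLonp1 against scramble raised 6 and lowered 1 of the 9 genes at Ctrl, where 26.3% of all genes were called higher and 22.9% lower. It raised 5 and lowered 2 in HS, beside 28.1% and 26.7% of all genes, and 4 and 3 when library size alone was the scaling. It raised 5 and lowered 3 in HS+REC, beside 26.8% and 27.3%. These fractions of the 9 were above the background in most comparisons, but the genes were picked with earlier results known, and the fractions are a description.

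The study also asked for a fold change above 2. With that limit, HS gave 3 of the 9 genes in scramble and 3 in siLonp1, namely SMAD7, ID1 and ID3 in both arms, against 3.3% and 4.57% of all genes. HS+REC gave 4 in scramble (TGFBR1, TGFBR2, SMAD7 and ID3) and 3 in siLonp1 (TGFBR1, TGFBR2 and SMAD7), against 4.46% and 5.71%. HS+REC against HS gave 1 in each arm, ID1, against 1.9% and 2.57%. No siLonp1 effect among the 9 passed it, where 4.17% of all genes did so at Ctrl, 4.17% in HS and 4.18% in HS+REC, although 7, 7 and 8 of the 9 had an unadjusted p under 0.05 (55%, 59.6% and 59% of all genes) and DESeq2, without the limit, called 7, 7 and 8.

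**Figure D1:**
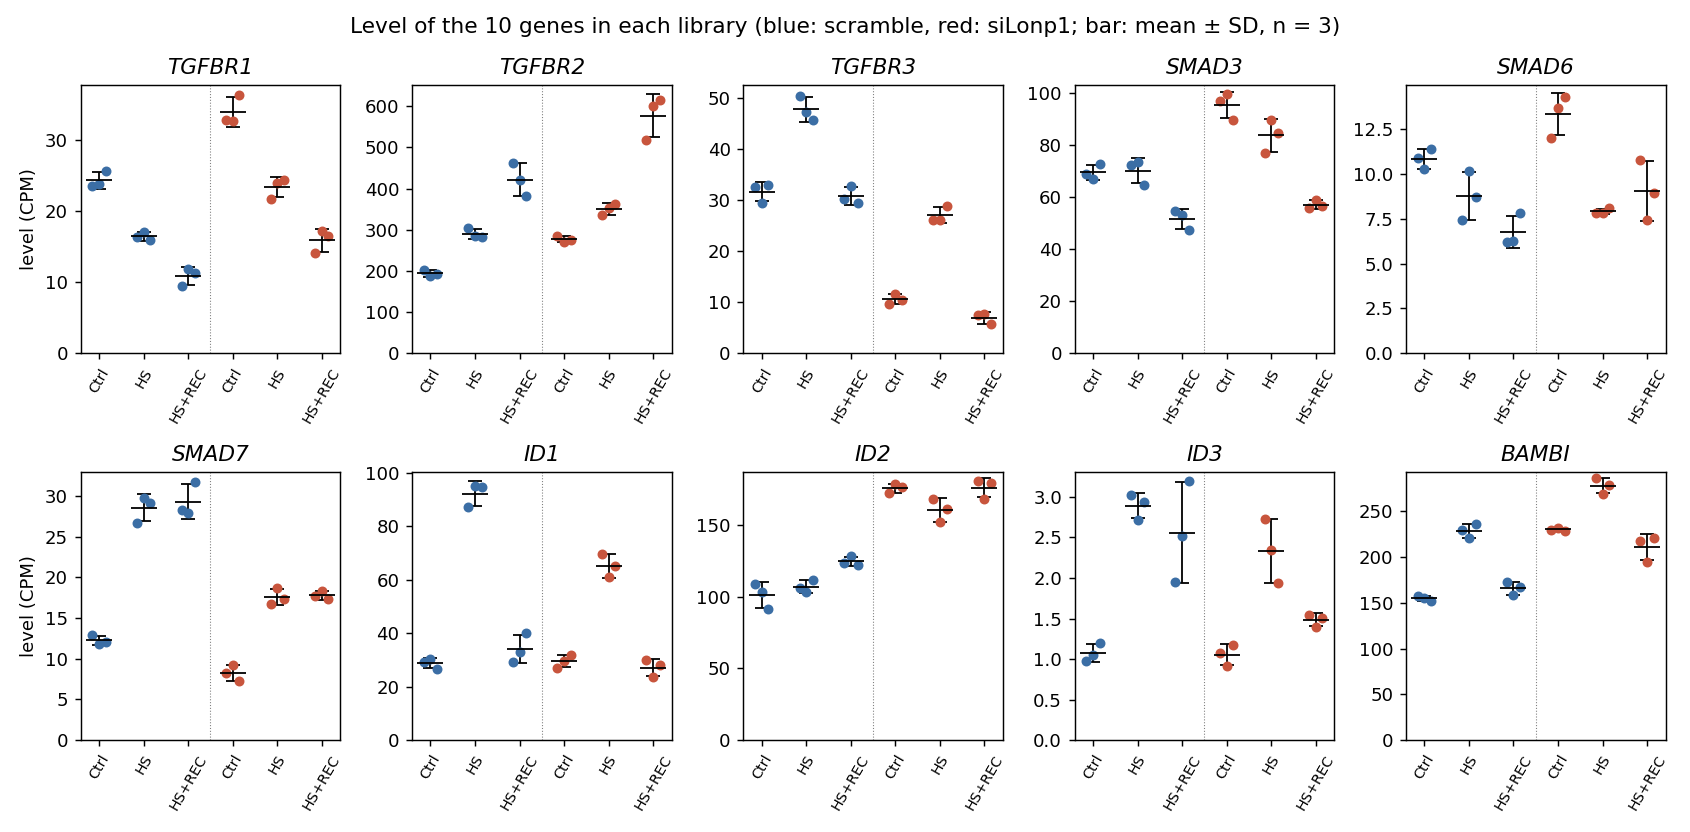
Level of each of the 10 genes in CPM (y axis, from 0) in each library, with scramble in blue and siLonp1 in red (x axis, condition); points are libraries and bars the mean ± SD of 3. TGFBR3 was lower in every siLonp1 library than in the scramble libraries of the same condition, and ID1 reached 87 CPM or more in the 3 HS scramble libraries only.

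TGFBR2 (chr3:30606601-30694142, plus strand, hg38), the ligand-binding type II receptor, rose with heat and with siLonp1. The Ctrl scramble libraries held 203, 187 and 193.5 CPM, the HS scramble libraries 304, 285 and 282 CPM, and the HS+REC scramble libraries 461, 422 and 381 CPM. The siLonp1 libraries held 286, 269.7 and 276 CPM at Ctrl, 335, 354 and 363 CPM in HS, and 518, 599.8 and 615 CPM in HS+REC. Every step of heat and recovery separated the groups without overlap in each arm, and every siLonp1 library lay above the scramble libraries of its condition. HS raised TGFBR2 1.49-fold in scramble (log2 0.58 ± 0.07 SE, adjusted p = 4.87e-07) and 1.26-fold in siLonp1 (log2 0.34 ± 0.07, adjusted p = 0.000337). By HS+REC it was 2.17-fold over Ctrl in scramble (log2 1.12 ± 0.07, adjusted p = 5.71e-12) and 2.08-fold in siLonp1 (log2 1.06 ± 0.07, adjusted p = 1.18e-11). The siLonp1 effect was log2 0.51 at Ctrl (adjusted p = 2.34e-06), 0.27 in HS (adjusted p = 0.00206) and 0.45 in HS+REC (adjusted p = 8.31e-06).

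TGFBR1 (chr9:99104038-99154192, plus strand), the type I receptor kinase that TGFBR2 activates, moved the other way with heat. The scramble libraries held 23.5, 23.7 and 25.6 CPM at Ctrl, 16.4, 17 and 15.8 CPM in HS, and 9.46, 11.8 and 11.2 CPM in HS+REC. The siLonp1 libraries held 32.7, 32.5 and 36.3 CPM at Ctrl, 21.7, 23.9 and 24.4 CPM in HS, and 14, 17.1 and 16.4 CPM in HS+REC. The groups of an arm did not overlap, and siLonp1 libraries were above scramble libraries in each condition. TGFBR1 fell to 67.6% of Ctrl in HS (log2 -0.56 ± 0.09, adjusted p = 1.31e-05) and to 44.7% in HS+REC (log2 -1.16 ± 0.09, adjusted p = 1.54e-10) in scramble. In siLonp1 it fell to 68.8% (adjusted p = 1.13e-05) and 46.8% (adjusted p = 1.85e-10). The siLonp1 effect was 1.39-fold at Ctrl, 1.42-fold in HS and 1.46-fold in HS+REC, with adjusted p from 2.1e-05 to 4.68e-05. The 2 signalling receptors of TGF-β thus moved in opposite directions with heat and in the same direction with siLonp1.

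TGFBR3 (chr1:91680343-91906335, minus strand), the co-receptor betaglycan, is described without tests because it was selected on its siLonp1 effect. The scramble libraries held 32.4, 29.5 and 32.8 CPM at Ctrl, 50.2, 47.2 and 45.6 CPM in HS, and 30.2, 32.8 and 29.3 CPM in HS+REC. The siLonp1 libraries held 9.69, 11.5 and 10.5 CPM at Ctrl, 26.1, 26.1 and 28.7 CPM in HS, and 7.45, 7.73 and 5.65 CPM in HS+REC. In each condition the siLonp1 libraries were all below the scramble libraries, and in each arm the HS libraries were above both others. The siLonp1 level was 33.5% of scramble at Ctrl, 56.6% in HS and 22.6% in HS+REC. The level in HS was 1.51 times Ctrl in scramble and 2.55 times Ctrl in siLonp1, and that in HS+REC was 97.4% of Ctrl in scramble and 65.7% in siLonp1. Among the 3 receptors, TGFBR3 alone was lower with siLonp1, which is the property it was selected on.

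SMAD3 (chr15:67063763-67195173, plus strand), the receptor-activated transducer of the TGF-β branch, was lower after recovery and higher with siLonp1. Group means were 69.5 ± 2.9 CPM (SD, n = 3) in Ctrl, 70 ± 4.84 CPM in HS and 51.6 ± 3.79 CPM in HS+REC for scramble, and 95.3 ± 5.1, 83.7 ± 6.31 and 57 ± 1.69 CPM for siLonp1. In scramble, HS and Ctrl overlapped (log2 0.01 ± 0.07, adjusted p = 0.912), and HS+REC fell to 74.3% of Ctrl (adjusted p = 2.44e-05). In siLonp1, HS+REC fell to 59.9% of Ctrl (adjusted p = 5.08e-09). HS fell to 87.8% of Ctrl in that arm (log2 -0.19 ± 0.07, adjusted p = 0.0317), a call that was lost without Ctrl siLonp1 replicate 1 (log2 -0.18) or 2 (-0.16), or without HS siLonp1 replicate 1 (-0.13) or 3 (-0.2), and with CPM above 1 required in all 18 libraries (-0.17, adjusted p = 0.0532). siLonp1 raised SMAD3 1.37-fold at Ctrl (adjusted p = 1.05e-05) and 1.19-fold in HS (adjusted p = 0.00341, and 0.0624 with library size alone as the scaling). In HS+REC the ratio was 1.1 (adjusted p = 0.0873).

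SMAD7 (chr18:48919853-48950965, minus strand), which recruits ubiquitin ligases to the type I receptor and so ends signalling, rose with HS and was still raised after recovery. The scramble libraries held 12.9, 11.8 and 12.1 CPM at Ctrl, 26.7, 29.8 and 29.2 CPM in HS, and 28.3, 27.9 and 31.8 CPM in HS+REC. The siLonp1 libraries held 8.24, 9.19 and 7.28 CPM at Ctrl, 16.7, 18.7 and 17.4 CPM in HS, and 17.8, 18.3 and 17.3 CPM in HS+REC. Heated libraries were all above Ctrl libraries within an arm, and siLonp1 libraries were all below scramble libraries within a condition. HS raised SMAD7 2.33-fold in scramble (log2 1.22 ± 0.08, adjusted p = 2.56e-11) and 2.14-fold in siLonp1 (log2 1.09 ± 0.09, adjusted p = 3.6e-10). From HS to HS+REC the ratio was 1.03 in scramble (adjusted p = 0.759) and 1.01 in siLonp1 (adjusted p = 0.918). siLonp1 lowered SMAD7 to 67.4% of scramble at Ctrl, 61.7% in HS and 60.7% in HS+REC, with adjusted p of 1.2e-05, 1.69e-07 and 8.34e-08.

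SMAD6 (chr15:66702236-66782849, plus strand), the inhibitory SMAD that acts mainly on the BMP branch, was lowered in both arms by HS+REC. Its group means were 10.8 ± 0.549, 8.76 ± 1.35 and 6.76 ± 0.903 CPM in scramble at Ctrl, HS and HS+REC, and 13.3 ± 1.18, 7.91 ± 0.154 and 9.04 ± 1.68 CPM in siLonp1. In scramble it was at 80.9% of Ctrl in HS (log2 -0.31 ± 0.12, adjusted p = 0.0525), and it was called lower with library size alone, no filter on low counts, only the groups compared or DESeq2 (adjusted p from 0.0233 to 0.0406) and without HS scramble replicate 2 (log2 -0.43, adjusted p = 0.0157). It fell to 62.6% in HS+REC (adjusted p = 9.67e-05). In siLonp1 it fell to 59.3% in HS (log2 -0.75 ± 0.12, adjusted p = 2.19e-05) and to 68% in HS+REC (adjusted p = 0.000441). siLonp1 raised it 1.23-fold at Ctrl (log2 0.3 ± 0.12, adjusted p = 0.0394), a call that was lost without any 1 of the 6 libraries other than Ctrl siLonp1 replicate 1, with log2 values of 0.245 to 0.335 there, and lost with library size alone as the scaling (log2 0.23). In HS+REC it was raised 1.34-fold (log2 0.42 ± 0.13, adjusted p = 0.00744), with overlapping libraries, a call lost without HS+REC siLonp1 replicate 1 (log2 0.26). In HS the level with siLonp1 was 90.2% of scramble (log2 -0.15 ± 0.13, adjusted p = 0.327), and the libraries overlapped. From HS to HS+REC in scramble it fell to 77.3% (adjusted p = 0.0312), with overlapping libraries, which was lost without HS scramble replicate 2 (log2 -0.24) or HS+REC scramble replicate 1 (-0.31) or 2 (-0.32). In siLonp1 that ratio was 1.15 (log2 0.2 ± 0.13, adjusted p = 0.257), and the libraries overlapped.

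ID1 (chr20:31605283-31606515, plus strand), a helix-loop-helix protein without a DNA-binding region that blocks other helix-loop-helix factors, rose with HS and fell with recovery. The scramble libraries held 29.4, 30.5 and 26.7 CPM at Ctrl, 87, 95.2 and 94.5 CPM in HS, and 29.4, 32.9 and 40 CPM in HS+REC. The siLonp1 libraries held 27.1, 29.7 and 31.9 CPM at Ctrl, 69.8, 61 and 65 CPM in HS, and 29.8, 23.5 and 28.1 CPM in HS+REC. The HS libraries stood above all others in both arms, while Ctrl and HS+REC overlapped. In scramble the HS+REC ratio to Ctrl was 1.18 (adjusted p = 0.051), called higher with no filter, with CPM above 1 in all 18 libraries or with only the groups compared (adjusted p from 0.0117 to 0.0476) and without HS+REC scramble replicate 1 (log2 0.34). HS raised ID1 3.2-fold in scramble (log2 1.68 ± 0.1, adjusted p = 2.15e-12) and 2.21-fold in siLonp1 (log2 1.14 ± 0.1, adjusted p = 1.32e-09), and HS+REC lowered it to 37% (adjusted p = 8.01e-11) and 41.6% (adjusted p = 5.89e-10) of HS. siLonp1 and scramble overlapped at Ctrl (adjusted p = 0.796). In HS siLonp1 lowered ID1 to 70.7% of scramble (log2 -0.5 ± 0.09, adjusted p = 0.000106), and in HS+REC to 79.6% (adjusted p = 0.00713), a call lost without HS+REC scramble replicate 3 (log2 -0.2) or HS+REC siLonp1 replicate 2 (-0.24).

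ID3 (chr1:23557926-23559501, minus strand), a paralog of ID1, was at a low level and rose with HS. In scramble it was at 0.973 to 1.2 CPM at Ctrl, 2.72 to 3.02 CPM in HS and 1.95 to 3.2 CPM in HS+REC. In siLonp1 it was at 0.914 to 1.18 CPM at Ctrl, 1.94 to 2.73 CPM in HS and 1.4 to 1.55 CPM in HS+REC. HS raised it 2.68-fold in scramble (log2 1.42 ± 0.18, adjusted p = 8.79e-07) and 2.22-fold in siLonp1 (log2 1.15 ± 0.19, adjusted p = 2.39e-05). In HS+REC it stayed 2.38-fold over Ctrl in scramble (adjusted p = 4.27e-06). In siLonp1 the rise over Ctrl was 1.41-fold (log2 0.5 ± 0.2, adjusted p = 0.0411), and this call was lost without any 1 of the 6 libraries other than Ctrl siLonp1 replicate 3 (log2 0.404 to 0.538) with library size alone as the scaling (log2 0.42) and with no filter on low counts (log2 0.48, adjusted p = 0.0519). From HS to HS+REC it fell to 63.7% in siLonp1 (adjusted p = 0.00588) with no overlap, and was at 88.8% in scramble (adjusted p = 0.47), where the libraries overlapped. siLonp1 lowered ID3 to 57.9% of scramble in HS+REC (log2 -0.79 ± 0.17, adjusted p = 0.000522), with no overlap of the libraries. The level with siLonp1 was 97.8% of scramble at Ctrl (adjusted p = 0.914) and 80.8% in HS (adjusted p = 0.11), where the libraries overlapped in both. The HS difference was called lower with library size alone (log2 -0.41, adjusted p = 0.0342) and without HS siLonp1 replicate 1 (-0.43, adjusted p = 0.0493).

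ID2 (chr2:8678845-8684461, plus strand), the third of these inhibitors, was not called for HS in either arm and was higher in every siLonp1 library. With scramble siRNA the values were 109, 103 and 91.4 CPM at Ctrl, 106, 103 and 112 CPM in HS, and 123, 128 and 122 CPM in HS+REC. With siLonp1 the values were 172, 178 and 176 CPM at Ctrl, 168, 152 and 161 CPM in HS, and 180.2, 168 and 179 CPM in HS+REC. The highest scramble library was below the lowest siLonp1 library. siLonp1 raised ID2 1.74-fold at Ctrl (log2 0.8 ± 0.06, adjusted p = 5.11e-10), 1.5-fold in HS (adjusted p = 5.84e-08) and 1.41-fold in HS+REC (adjusted p = 4.99e-07). The HS ratio to Ctrl was 1.06 in scramble (adjusted p = 0.34) and 91.3% in siLonp1 (adjusted p = 0.0915), the latter called lower with library size alone (log2 -0.18, adjusted p = 0.0182). HS+REC raised it 1.23-fold over Ctrl in scramble (adjusted p = 0.000367) and 1.17-fold over HS (adjusted p = 0.00916), the latter lost without HS scramble replicate 2 (log2 0.19). In siLonp1 the HS+REC ratio was 1 to Ctrl (adjusted p = 0.975) and 1.1 to HS (adjusted p = 0.104). The antisense gene ID2-AS1 overlaps ID2, and since the strand setting of the counting is not given in the sources used here, reads of the pair may not be separated.

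BAMBI (chr10:28677510-28682932, plus strand), a receptor-like protein without a kinase that blocks type I receptors, rose with HS and fell with recovery. With scramble siRNA the values were 157, 155 and 152 CPM at Ctrl, 229, 221 and 236 CPM in HS, and 172, 158 and 167 CPM in HS+REC. With siLonp1 the values were 230.1, 232 and 229 CPM at Ctrl, 286, 269 and 279 CPM in HS, and 218, 194 and 221 CPM in HS+REC. HS libraries were above the Ctrl libraries in each arm, and siLonp1 libraries above scramble libraries in each condition. HS raised BAMBI 1.48-fold in scramble (log2 0.56 ± 0.06, adjusted p = 2.24e-08) and 1.21-fold in siLonp1 (log2 0.27 ± 0.06, adjusted p = 0.000297). In HS+REC it fell to 72.5% of HS in scramble (adjusted p = 7.76e-07) and to 75.8% in siLonp1 (adjusted p = 4.31e-06), which was 1.07 times Ctrl (adjusted p = 0.161) and 91.6% of Ctrl (adjusted p = 0.0603). The latter was called lower with library size alone (log2 -0.21, adjusted p = 0.00275) and without HS+REC siLonp1 replicate 3 (-0.16, adjusted p = 0.035). siLonp1 raised it 1.49-fold at Ctrl (adjusted p = 1.67e-08), 1.22-fold in HS (adjusted p = 0.00017) and 1.27-fold in HS+REC (adjusted p = 1.58e-05).

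**Figure D2:**
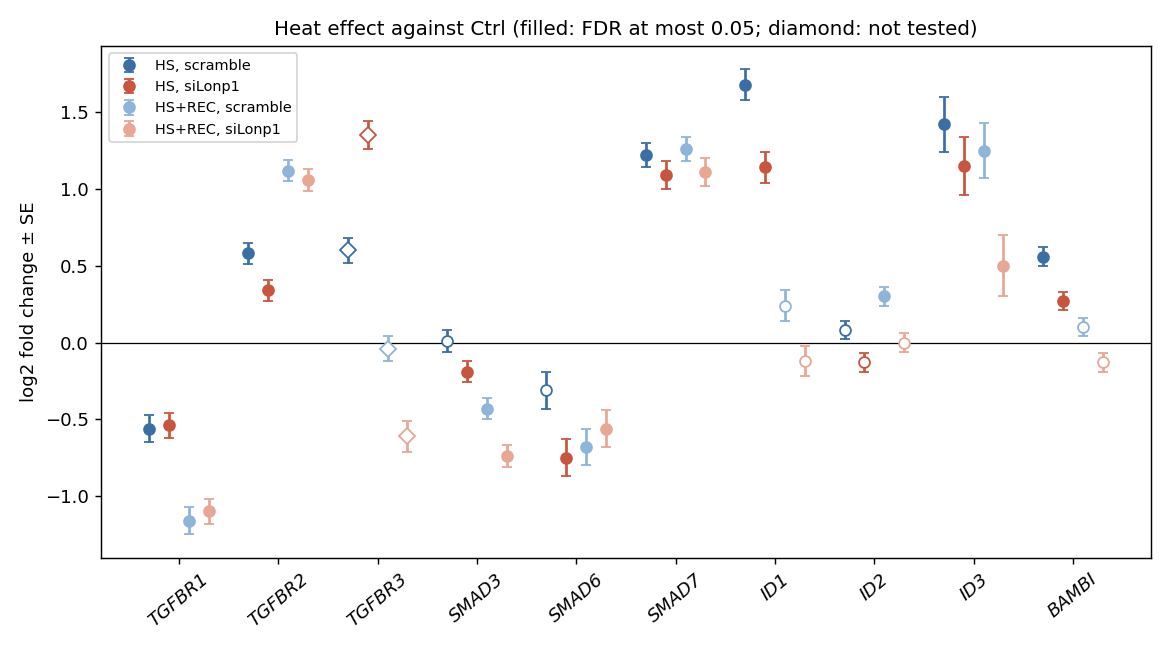
Heat effect on each gene as the log2 fold change ± SE against Ctrl (y axis), for HS (dark) and HS+REC (light) in scramble (blue) and siLonp1 (red); filled circles passed an FDR of 0.05, open circles did not and diamonds (TGFBR3) were not tested. SMAD7 lay between 1.09 and 1.26 in all 4 comparisons, while ID1 was at 1.68 and 1.14 in HS and at 0.24 and -0.12 in HS+REC.

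The promoter sequences of the genes that rose more than 2-fold with HS in both arms, ID1, ID3 and SMAD7, are shown with that of SMAD6, the inhibitory SMAD that did not rise. They are the 250 bases before the start site in RefSeq (GRCh38.p14), read 5′ to 3′ on the strand of the gene, and capitals mark matches to the motifs searched.
ID1: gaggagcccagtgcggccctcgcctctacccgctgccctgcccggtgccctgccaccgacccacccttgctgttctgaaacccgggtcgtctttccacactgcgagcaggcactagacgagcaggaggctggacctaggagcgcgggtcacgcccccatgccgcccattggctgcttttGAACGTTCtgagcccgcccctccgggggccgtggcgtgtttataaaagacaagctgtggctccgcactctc
ID3: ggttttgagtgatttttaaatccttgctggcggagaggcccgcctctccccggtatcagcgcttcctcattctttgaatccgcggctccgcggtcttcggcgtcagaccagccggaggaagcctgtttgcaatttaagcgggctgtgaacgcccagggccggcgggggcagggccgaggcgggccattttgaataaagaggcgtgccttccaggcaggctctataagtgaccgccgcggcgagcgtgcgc
SMAD7: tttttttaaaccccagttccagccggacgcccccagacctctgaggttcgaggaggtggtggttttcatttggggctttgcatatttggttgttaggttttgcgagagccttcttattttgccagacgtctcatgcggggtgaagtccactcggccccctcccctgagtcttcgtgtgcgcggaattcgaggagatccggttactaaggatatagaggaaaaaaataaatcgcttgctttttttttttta
SMAD6: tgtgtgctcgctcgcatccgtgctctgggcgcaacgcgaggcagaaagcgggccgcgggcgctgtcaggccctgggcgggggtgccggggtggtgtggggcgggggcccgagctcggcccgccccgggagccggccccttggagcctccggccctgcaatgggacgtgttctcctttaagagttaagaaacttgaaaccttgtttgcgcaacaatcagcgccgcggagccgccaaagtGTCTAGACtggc
They lie at chr20:31605039-31605288 (plus strand), chr1:23559502-23559751 (minus strand), chr18:48950966-48951215 (minus strand) and chr15:66701986-66702235 (plus strand). All 10 genes were matched to the table of 27305 promoters, and 300 bases of each, 50 of them after the start, were searched on both strands. The motifs were GTCTAGAC and CAGACA, forms of the SMAD-binding element, GGCGCC, a GC-rich site of BMP SMADs, GAANNTTC and TTCNNGAA, which are paired units of the heat shock element, TGACGTCA, the cyclic AMP response element, and CACGTG, an E-box. ID1 held 1 match to GAANNTTC, as GAACGTTC with its first base at position -71, and 6.87% of all promoters held that motif. SMAD6 held GTCTAGAC at -12, a motif of 0.201% of all promoters. ID3, SMAD7, ID2 and the 3 receptors held no match in this window. BAMBI held GGCGCC at -209, -196 and -181, and SMAD3 held it at -136 and -106 and CACGTG at -173, where 19% and 7.43% of all promoters held these motifs. The other motifs were in 16.8% (CAGACA), 7.84% (TTCNNGAA) and 1.98% (TGACGTCA) of all promoters and in none of the 10 genes, and no matches overlapped.

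**Figure D3:**
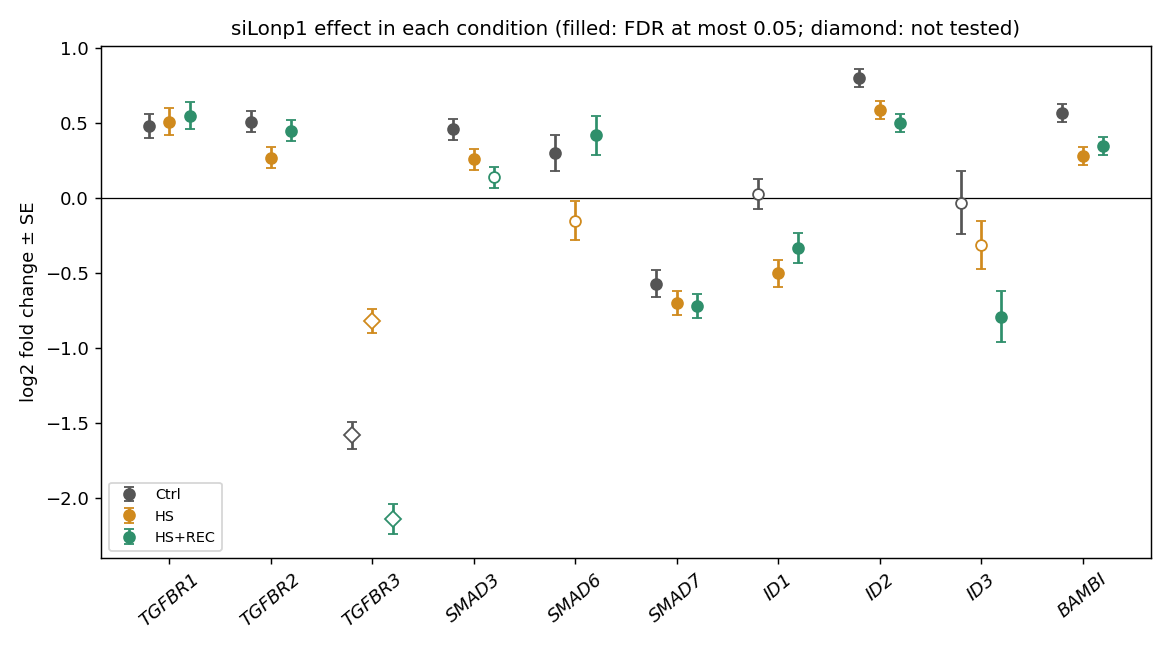
siLonp1 effect on each gene as the log2 fold change ± SE against scramble (y axis) at Ctrl (grey), in HS (orange) and in HS+REC (green); filled circles passed an FDR of 0.05, open circles did not and diamonds (TGFBR3) were not tested. ID2 lay between 0.5 and 0.8 and SMAD7 between -0.72 and -0.57 in the 3 conditions.

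Whether the heat effect differed between the arms was asked with the interaction of siLonp1 with HS. ID1 alone of the 9 was called, with a rise 0.53 smaller on the log2 scale in siLonp1 (log2 -0.53 ± 0.14 SE, adjusted p = 0.0433), beside 0.475% of all genes called higher and 1.39% lower, and 0 of the 9 against 0.14% with the 2-fold limit. The call was at the edge of the threshold. It was lost with RLE size factors (adjusted p = 0.05), with the filter of CPM above 1 in all 18 libraries (0.0507) and without any 1 of 11 of the 12 libraries, all but HS scramble replicate 3, with log2 values from -0.59 to -0.48. BAMBI was next (log2 -0.29 ± 0.08, adjusted p = 0.0552), and it was called lower with library size alone (-0.31, adjusted p = 0.034), with only the groups compared in the fit (-0.3, adjusted p = 0.00731) and with DESeq2 (-0.28, adjusted p = 0.0134). TGFBR2 (log2 -0.24 ± 0.1, adjusted p = 0.229) was called lower with only the groups compared (-0.25, adjusted p = 0.039). In all, 5 of the 9 had an unadjusted p under 0.05, beside 15.2% of all genes. For HS+REC, edgeR called 0 of the 9, with 5 at an unadjusted p under 0.05 (13.6% of all genes), and DESeq2 called 0, beside 0.686% of all genes higher and 0.896% lower, and 0 against 0.109% with the 2-fold limit. ID1 was called lower there with no filter on low counts (-0.39, adjusted p = 0.0469), and SMAD3 without HS+REC scramble replicate 3 (-0.37, adjusted p = 0.0433). The log2 interaction of ID3 in HS+REC was -0.76 ± 0.27 (adjusted p = 0.185). For TGFBR3, which was selected on this difference and so was not tested, the HS value was 0.76 and the HS+REC value -0.57.

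The wider pathway was read from 126 listed genes outside the 10, of which 89 passed the filter. They were 13 of 28 ligands, 11 of 16 receptors and co-receptors, 4 of 5 other SMADs, 8 of 22 extracellular regulators, all 26 intracellular regulators and 27 of 29 targets. The ligands BMP2, NODAL and INHBA, the secreted BMP antagonists NOG, CHRD and GREM1, and SMAD9 were all under 1 CPM in every library. At 37 °C, siLonp1 raised 51 and lowered 6 of the 89 (median log2 0.28, against 0.01 over all genes), where 26.3% of all genes were called higher and 22.9% lower. The counts were 39 and 14 in HS (median 0.13 against 0), beside 28.1% and 26.7% of all genes, and 47 and 10 in HS+REC (median 0.24 against 0), beside 26.8% and 27.3%. Of the targets, 21 rose and 1 fell at Ctrl (median 0.58), of the extracellular regulators 6 rose and 0 fell (median 0.67), and of the receptors 1 rose and 2 fell (median 0.06). COL1A1 is in both the target list and the fibroblast markers. HS raised 32 and lowered 16 of the 89 in scramble (median 0.09 against -0.01) and raised 27 and lowered 24 in siLonp1 (median 0.01 against 0), where all genes gave 18.6% higher and 17.3% lower in scramble and 20.2% and 22.1% in siLonp1. Among the targets 18 rose and 3 fell in scramble and 15 and 3 in siLonp1. Many of these targets, such as MYC, JUNB and CDKN1A, also respond to other signals. The target list does not separate genes that the pathway raises from those it lowers, so these counts do not measure its activity.

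**Figure D4:**
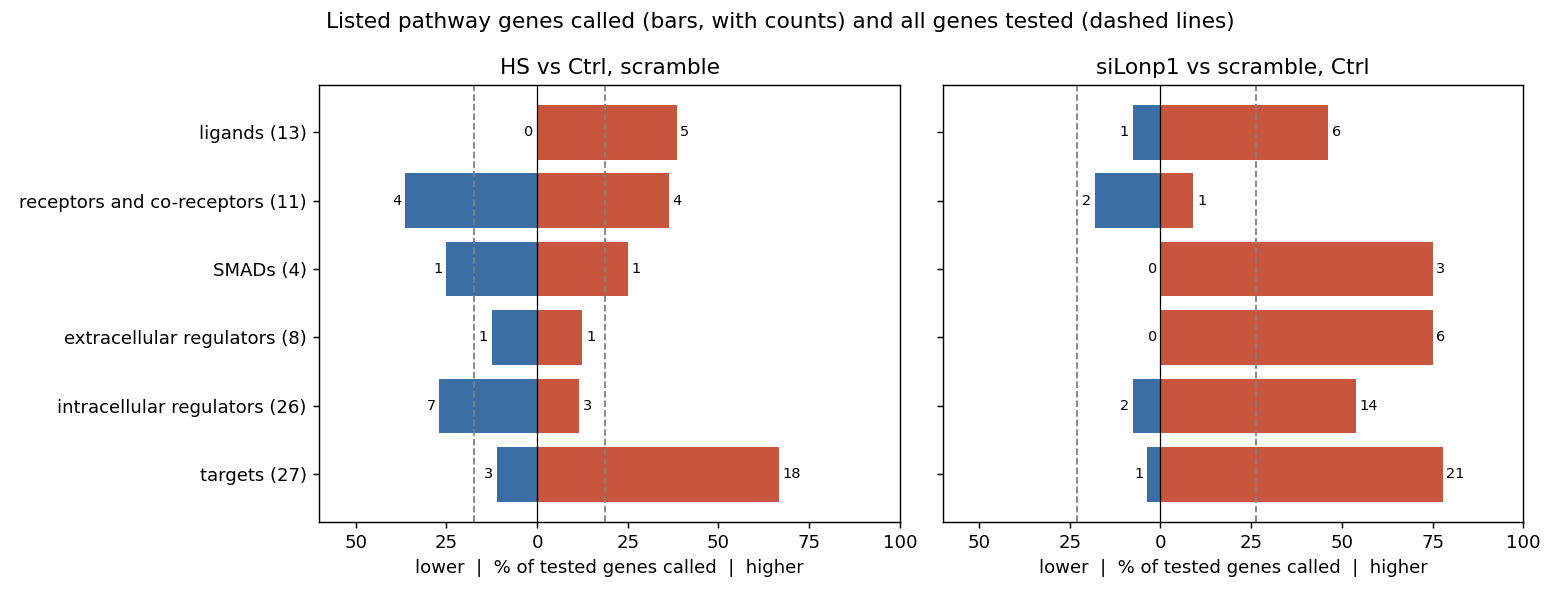
Share of the tested genes of each pathway list called higher (red, to the right) or lower (blue, to the left), in % (x axis), for HS in scramble (left panel) and siLonp1 at Ctrl (right panel); numbers are genes, list sizes are in brackets and dashed lines are the shares of all genes tested. Of the 27 targets, 18 rose with HS and 21 with siLonp1.

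After recovery, 24 of the 89 rose and 22 fell against Ctrl in scramble, beside 21.8% and 20.5% of all genes, and 33 rose and 26 fell in siLonp1, beside 24.6% and 26.6%. With library size alone as the scaling the counts were 19 and 30 in scramble and 26 and 32 in siLonp1, and of the calls over all genes 34.9% and 35.1% were then higher, against 51.5% and 48% with TMM. From HS to HS+REC, 11 rose and 24 fell in scramble, beside 14.2% and 12.7% of all genes, and 29 rose and 23 fell in siLonp1, beside 16.3% and 15.6%. Among the ligands, TGFB1, the main ligand of TGFBR2, rose 2.23-fold with siLonp1 at Ctrl (log2 1.16, adjusted p = 3.58e-09), from 46.1 ± 3.63 to 103 ± 7.65 CPM. GDF11, an activin-like ligand, rose by log2 1.3 (adjusted p = 4.41e-12). INHBE, which encodes a chain of activin E, rose with HS+REC by log2 1.8 in scramble and 2.53 in siLonp1. The type II activin receptor ACVR2A rose with HS by log2 1.11 in scramble and 0.99 in siLonp1, and the type I receptor ACVR1B fell by 0.36 and 0.58. RGMA, a BMP co-receptor, fell with HS from 51.3 ± 0.697 to 26.2 ± 3.52 CPM in scramble and from 54.9 ± 3.73 to 17.8 ± 1.92 CPM in siLonp1.

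Of the SMADs, SMAD2, the partner of SMAD3, rose with siLonp1 by log2 0.66 at Ctrl, 0.7 in HS and 0.83 in HS+REC (adjusted p from 1.19e-10 to 4.88e-09). SMAD4, the shared partner of both branches, was at group means of 1.21 to 2.17 CPM. Of the BMP transducers, SMAD1 rose with siLonp1 1.18-fold at Ctrl (adjusted p = 0.00286) and 1.24-fold in HS+REC (adjusted p = 0.000245), with a ratio of 1 in HS (adjusted p = 0.97). Heat lowered SMAD1 to 0.838 times Ctrl in scramble (adjusted p = 0.00274) and 0.711 times in siLonp1 (adjusted p = 9e-07). The values of SMAD5 differed by log2 0.13 to 0.15 between siLonp1 and scramble, with adjusted p of 0.136 or more. Outside the cell, ITGB8, a subunit of an integrin that frees TGF-β from its latent form, rose with siLonp1 by log2 1.52 at Ctrl (adjusted p = 1.11e-10), and the latent TGF-β binding protein LTBP3 by 0.74. Inside the cell, PMEPA1, a feedback inhibitor, rose with siLonp1 by log2 0.81 at Ctrl and 1.07 in HS+REC, and SKI, a SMAD corepressor, fell with HS by 0.87 in scramble and 1.02 in siLonp1. TGIF2, another corepressor, and LEMD3, a SMAD-binding protein of the nuclear envelope, fell with HS by 0.64 and 0.58 in scramble. Among the targets, TAGLN rose with siLonp1 by log2 2.22 at Ctrl, from 17.9 ± 1.6 to 83.2 ± 7.11 CPM, and fell with HS+REC by 1.71 in scramble. DLX2 rose with HS by log2 2.32 and CDKN1A by 1.67 in scramble. ATOH8, a BMP target, was at 1.7 CPM in Ctrl scramble and at 0.245 CPM in Ctrl siLonp1. Its siLonp1 libraries held at most 0.9997 CPM, in HS+REC. It passed the filter on low counts only through the scramble libraries, so this difference is a description.

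The interaction of siLonp1 with HS was called for 5 of the 89 genes (INHBE higher, and RGMA, RGMB, THBS1 and CYR61 lower), and that with HS+REC for 4 (INHBE and TSC22D1 higher, MYC and SNAI1 lower). Of all genes, 0.475% were called higher and 1.39% lower for HS, and 0.686% and 0.896% for HS+REC. RGMB, CYR61, MYC, SNAI1 and TSC22D1 were named after their values were seen. THBS1, an activator of latent TGF-β, held 319 ± 8.94 CPM with scramble and 734 ± 43.5 CPM with siLonp1 at Ctrl, and 364 ± 21.6 and 564 ± 56 CPM in HS. Its log2 HS effect was 0.19 in scramble (adjusted p = 0.0294), a call lost with library size alone (0.16) and without any 1 of the 6 libraries other than HS scramble replicate 3 (0.144 to 0.203). In siLonp1 the effect was -0.38 (adjusted p = 5.84e-05), and the interaction was -0.57 ± 0.09 (adjusted p = 0.00194). INHBE was at 8.21 ± 0.713 CPM in HS scramble and 14.5 ± 1.16 CPM in HS siLonp1, from 6.17 ± 0.866 and 5.51 ± 0.476 CPM at Ctrl.

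Over the 18 libraries, the genes with a log2 CPM pattern most like that of TGFBR3 among 12831 compared were SCML2, PCMTD1, C20orf194, RBM20 and ATG14, with Pearson's r from 0.981 to 0.961. SCML2, a Polycomb-group protein, held 8.97 ± 0.305 CPM with scramble and 4.95 ± 0.367 CPM with siLonp1 at Ctrl, and 10.4 ± 0.703 and 7.63 ± 0.361 CPM in HS. ATG14, a subunit of the autophagy-initiating lipid kinase complex, was at 21.9 ± 0.948 and 15.8 ± 1.52 CPM at Ctrl and at 33.8 ± 0.513 and 23.6 ± 0.969 CPM in HS. Those most like ID1 were the small nucleolar RNA genes SNORD14D and SNORD14E and the zinc finger genes ZBED8, ZNF112 and ZNF442, with r from 0.965 to 0.94. Outside HS, the group means of SNORD14E and ZNF442 were at most 0.449 and 0.707 CPM (HS+REC scramble). Both thus passed the filter on low counts through HS libraries, where ID1 also peaked. Whether the reads of the SNORD14 genes come from the small RNAs was not tested. SNORD14D was at 0.735 ± 0.121 CPM in Ctrl scramble, 6.39 ± 1.3 CPM in HS scramble and 3.25 ± 0.756 CPM in HS siLonp1. Among the 10 genes, TGFBR1 and SMAD3 had r = 0.89, SMAD7 and ID3 0.86, TGFBR1 and SMAD7 -0.88, and TGFBR3 and ID2 -0.82. The libraries share groups, and after the group means were removed r was 0.11 for TGFBR1 and SMAD3, so these values describe the differences between groups.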

How the data were processed

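RNAseq of SW620 cells was used, with 18 libraries in 6 groups of 3, each mapped by its column name. The authors prepared stranded mRNA libraries, aligned paired-end reads to hg38 with STAR 2.7.3a and counted UCSC genes with featureCounts in R 3.6.3, and the deposited values are raw counts with no normalization. The strand setting, the treatment of shared reads and the annotation release are not given in the sources used here.

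A gene needed a CPM over 1 in 3 or more libraries, which kept 12832 of 26485. A single quasi-likelihood model of all 18 libraries was fitted with edgeR 4.0.16 (R 4.3.3) after TMM scaling. From it came 11 contrasts, 9 between groups and 2 interactions. Calls needed an FDR (Benjamini-Hochberg, over all genes tested) no higher than 0.05, at any fold change, and the limit of 2-fold used in the study was an alternative. The prior count for fold changes was 0.125 and that for the log2 CPM of correlations 2. Total counts of 30815860 to 47279297 per library set the counting error, and replicates differed by more than counting error (chi-square per degree of freedom of 3.48 to 25.8). Simulated counts with 200 changed genes were also put through the test, and the outcome is not reported here.

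The 10 genes, the pathway lists and the markers were chosen with earlier results of these data known, so their counts are descriptions. Named were the 10 genes and LONP1, in each pathway list up to 4 genes with the largest called fold change and a mean of at least 1 CPM, with SMAD1, SMAD2, SMAD4 and SMAD5, and the 5 genes most like TGFBR3 and ID1. Levels per kb used the canonical transcript of GENCODE, as did gene positions, and promoters were from RefSeq. Each choice was varied: RLE size factors, library size alone, 2 other filters, DESeq2 1.42.0, only the groups compared, the replicate block, a prior count of 2, the 2-fold limit and each library left out in turn.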

Additional observations from a re-analysis of the deposited data

Results flagged for a closer look

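Results are listed here where the test of the interaction itself passed an FDR of 0.05, so that the heat effect differed between the siLonp1 and the scramble arm. Groups of 3 were too small for the search for single outlying libraries.

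For ID1 the rise with HS was smaller with siLonp1 (log2 interaction -0.53, SE 0.14, adjusted p = 0.0433 by edgeR). The rise was log2 1.68 in scramble and 1.14 in siLonp1, and the 3 HS siLonp1 libraries (61 to 69.8 CPM) were below the 3 HS scramble libraries (87 to 95.2 CPM). The call was lost in 11 of the 12 fits with a library left out, with RLE size factors (adjusted p = 0.05) and with CPM above 1 required in all 18 libraries (adjusted p = 0.0507).

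Of the listed pathway genes, the HS effect on INHBE was larger with siLonp1 (0.98, adjusted p = 0.000585), and it was lower for THBS1 (-0.57, adjusted p = 0.00194), RGMA (-0.66, adjusted p = 0.0295), RGMB (-0.5, adjusted p = 0.0211) and CYR61 (-0.67, adjusted p = 0.0121). The HS+REC effect was higher with siLonp1 for INHBE (0.72, adjusted p = 0.00772) and TSC22D1 (0.44, adjusted p = 0.0127), and lower for MYC (-0.65, adjusted p = 0.0147) and SNAI1 (-0.53, adjusted p = 0.0358). SNAI1 lost its call with only the groups compared (adjusted p = 0.0737). RGMA lost its call in 9 and SNAI1 in 7 of the 12 fits with a library left out, RGMB in 5, and CYR61 and MYC in 1 each, CYR61 without Ctrl siLonp1 replicate 1 (-0.61) and MYC without Ctrl scramble replicate 3 (-0.62). INHBE, THBS1 and TSC22D1 kept theirs in all 12.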

How the results depend on the processing

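With a fold change above 2, members called were 3, 3, 4, 3, 1 and 1 in the heat comparisons (HS, HS+REC, and HS+REC against HS, scramble before siLonp1), 0, 0 and 0 for siLonp1 at Ctrl, HS and HS+REC, and 0 for the interaction with HS. Pathway genes called were then 9, 8, 11, 14, 3 and 3, then 10, 8 and 10, and 0 for each interaction. For the interaction with HS, 1 of the 9 genes was called, against 0 with RLE size factors, with CPM above 1 in all 18 libraries or with the replicate block, 2 with library size alone or DESeq2, and 3 with only the groups compared, and 0 to 1 with a library left out. Pathway genes called for it were 10 with no filter on low counts, 13 with only the groups compared, and 2 to 6 with a library left out. For the interaction with HS+REC, no filter gave 1 of the 9 genes and 7 pathway genes, DESeq2 7 pathway genes, and leaving out a library 0 to 1 and 2 to 6.

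Directions that turned belonged to values that had not passed the test. With library size alone the log2 value was -0.013 for SMAD3 (HS, scramble), -0.077 for ID2 (HS+REC, siLonp1), -0.018 and -0.016 for SMAD7 (HS+REC against HS, scramble and siLonp1) and -0.039 for ID1 (siLonp1, Ctrl), and with no filter -0.016 for ID2 and -0.009 for SMAD7 in siLonp1. With a library left out, the ranges were -0.022 to 0.092 (SMAD3), -0.014 to 0.034 (ID2), -0.023 to 0.075 and -0.02 to 0.06 (SMAD7), -0.023 to 0.094 (ID1) and -0.117 to 0.061 (ID3, siLonp1 at Ctrl). For the interactions they were -0.015 to 0.079 (TGFBR1, HS), -0.021 to 0.141 (TGFBR1, HS+REC), -0.126 to 0.011 (TGFBR2, HS+REC) and -0.037 to 0.243 (SMAD6, HS+REC).

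Same-numbered libraries did not pair: 10 of 45 same-numbered pairs had r above 0.1 (median -0.02, against 0.02 for other pairs), and 6 of 18 libraries correlated best with their own number. With the replicate block the interaction with HS lost its call for ID1 (-0.531, adjusted p = 0.0568) and RGMA (-0.659, adjusted p = 0.0501), and of the other genes named only SMAD5 and SKI (HS+REC, siLonp1) and SMAD1 (HS+REC against HS, scramble) lost a call. Library size alone shifted the median of all genes by at most -0.1, and in the 6 comparisons where it moved the share of higher calls among all genes by over 10 points, that share was 34.9% to 39.2%, against 48% to 53.4% with TMM. The cause of these changes was not tested. Of the 9 genes tested, ID3, at about 1 to 3 CPM, had the largest SE (0.16 to 0.21 between groups). Of the pathway genes described, ATOH8 had the largest, up to 0.38 between groups (HS against Ctrl, siLonp1). SMAD4 was also low, and 37 of the 126 listed genes were too low to test.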
